A study of Mus musculus with 18 samples.

Results

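The acetylcholine receptor and neuromuscular junction genes examined here were Chrna1, Chrnb1, Chrnd, Chrne, Chrng, Musk, Rapsn, Dok7, Ache and Lrp4. All probes annotated with one of these symbols were taken, which gave 18 probes for the 10 genes, of 46632 probes and 17711 named genes on the array. Amplified cRNA made from total RNA of mouse primary myotube cultures was hybridised to Illumina MouseWG-6 v1.1 bead arrays, 1 array per culture. The cultures came from limb muscles of C57BL/10 neonates 3 to 5 days old, and all were kept in differentiation medium for the last 48 h before RNA was taken on day 6. The 3 groups were 7 cultures given an siRNA against dystrophin on days 2 and 4, 7 cultures given an siRNA against GL2 firefly luciferase, which mouse cells do not have, on the same days, and 4 cultures left untreated. The knockdown thus rests on 1 siRNA sequence, both siRNA groups received a transfection reagent, and the sources used here do not say that the untreated cultures did. The study's methods state that muscle homogenates of different mice were mixed before plating on each of 4 occasions, so cultures of 1 occasion share their cells, and p-values treat them as independent.

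The muscle acetylcholine receptor is a ligand-gated cation channel built from alpha, beta, delta and either gamma or epsilon subunits. Fetal and denervated muscle carries the gamma form, and innervated adult muscle replaces it with the epsilon form, a switch that shortens the channel's open time. Nerve-derived agrin binds Lrp4, which activates the kinase MuSK with the help of the adaptor Dok-7, rapsyn then clusters the receptors under the nerve ending, and acetylcholinesterase, the product of Ache, ends the signal by cleaving acetylcholine. Myotubes grown without nerve make most of these proteins, in a state closer to fetal muscle.

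Promoter sequences are shown for the subunit pair of the fetal to adult switch, Chrne and Chrng, and for Chrna1 and Ache, whose transcripts also differed between the siRNA groups. Each runs from 250 bases before to 50 bases after an annotated start, 5′ to 3′ along the gene, from RefSeq on build GRCm38.p6. Capitals mark E-boxes, the letters CANNTG, of which myogenic factors bind some forms, and the N-box CCGGAA, bound by Ets factors.
Chrne (chr11:70619145-70619444, minus strand): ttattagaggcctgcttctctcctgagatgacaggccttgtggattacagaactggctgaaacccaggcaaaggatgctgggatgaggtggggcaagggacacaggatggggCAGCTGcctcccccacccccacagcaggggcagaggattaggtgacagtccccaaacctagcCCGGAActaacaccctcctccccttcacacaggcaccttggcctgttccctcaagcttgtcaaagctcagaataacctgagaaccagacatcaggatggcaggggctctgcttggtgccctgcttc
Chrng (chr1:87205561-87205860, plus strand): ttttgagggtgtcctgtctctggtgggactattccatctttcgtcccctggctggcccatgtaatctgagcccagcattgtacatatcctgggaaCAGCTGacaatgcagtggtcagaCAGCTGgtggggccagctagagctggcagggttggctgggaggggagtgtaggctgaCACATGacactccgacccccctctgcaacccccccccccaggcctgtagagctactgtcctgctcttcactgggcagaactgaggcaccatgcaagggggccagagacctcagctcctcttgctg
Chrna1 (chr2:73580289-73580588, minus strand): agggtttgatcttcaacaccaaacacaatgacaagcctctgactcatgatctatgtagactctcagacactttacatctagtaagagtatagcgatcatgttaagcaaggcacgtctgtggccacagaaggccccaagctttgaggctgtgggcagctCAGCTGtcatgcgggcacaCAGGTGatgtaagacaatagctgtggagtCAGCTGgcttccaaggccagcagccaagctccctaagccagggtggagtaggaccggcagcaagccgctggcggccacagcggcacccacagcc
Ache (chr5:137288004-137288303, plus strand): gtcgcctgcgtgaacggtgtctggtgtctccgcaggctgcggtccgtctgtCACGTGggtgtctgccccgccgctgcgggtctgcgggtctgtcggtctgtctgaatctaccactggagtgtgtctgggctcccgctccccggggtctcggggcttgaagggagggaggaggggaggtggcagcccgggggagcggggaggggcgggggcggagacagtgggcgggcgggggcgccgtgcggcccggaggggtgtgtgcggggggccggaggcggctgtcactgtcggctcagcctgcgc

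A promoter window was found for 7 of the 10 genes (Chrna1, Chrnb1, Chrne, Chrng, Musk, Dok7 and Ache, with 2 windows for Dok7), and both strands were searched. The N-box stood in the Chrne window alone, with its first base at -76 from the start. Among all 32851 windows of the same length, 14.9% held it. The E-box form CAGCTG, which is 1 case of CANNTG, was present once in Chrne and Musk and at 2 places each in Chrna1 and Chrng, against 16.3% of all windows with at least 1. The Ache window held a single E-box of another form, CACGTG, at -199, and CANNTG in any form was present in 72.3% of all windows. These matches describe letters and are not measured binding. Chrnd and Chrng lie next to each other on chromosome 1 with no annotated gene between them.

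**Figure D1:**
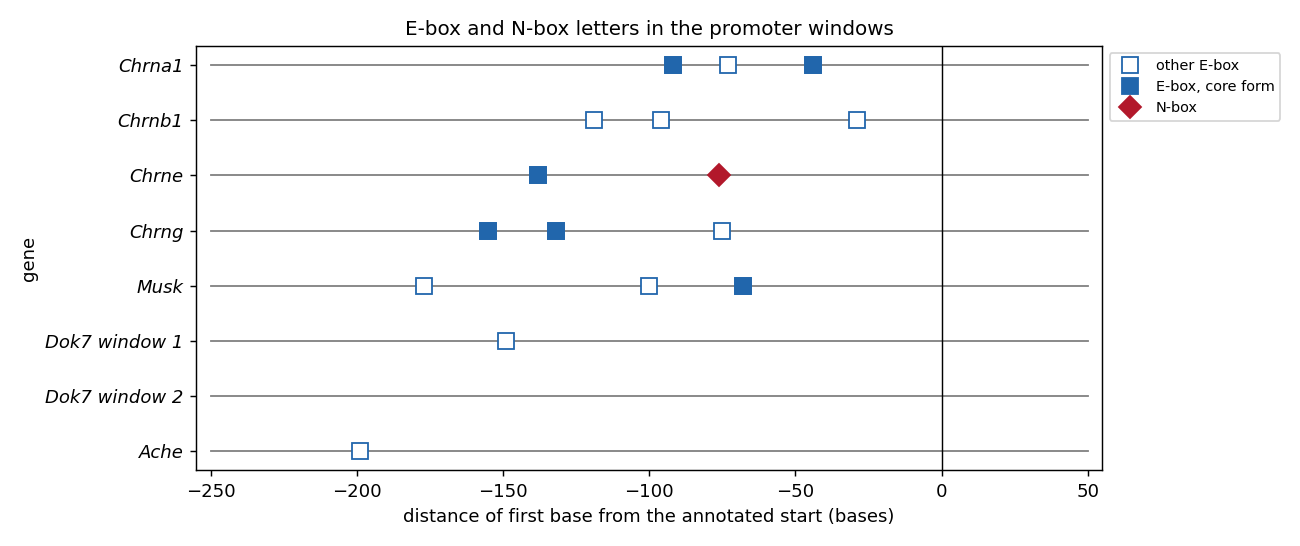
Positions of E-boxes (squares, filled for the form CAGCTG) and of the N-box (diamond) in the 8 promoter windows, with the distance from the annotated start in bases on the x axis. The N-box appears at -76 in Chrne, and no other window has one.

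Arrays were alike in depth: 17551 to 18530 probes per array (37.6% to 39.7%) had a detection p under 0.05 against the array's negative controls, and the lowest correlation between 2 arrays was 0.9819. Levels are log2 values after background correction and quantile normalization, on which the median probe lay at 3.95 and the highest at 15.78. The lowest level of a detected probe was between 4.88 and 5.12 on the different arrays. Of the 18 receptor and junction probes, 11 passed the detection threshold on every array, 4 more on 4 or more arrays, and 1 on none. Each gene is represented by its brightest probe. The brightest Dmd probe averaged 8.32 ± 0.16 in dystrophin siRNA cultures, against 10.32 ± 0.16 in GL2 siRNA and 10.22 ± 0.12 in untreated cultures (SD, n = 7, 7 and 4), which left 25.0% of the GL2 level. A second Dmd probe, also detected on all 18 arrays, differed less, by -0.58 ± 0.16 (SE) from GL2 siRNA (limma, adjusted p = 0.0392) and by -0.67 ± 0.18 from untreated cultures (adjusted p = 0.111), and 3 other Dmd probes were detected on 0 arrays. The arrays were also divided into 4 clusters, a number chosen with earlier results of these data known, by their deviations from the group means. Each cluster held all 3 groups, and the labels and headers do not say what the clusters share.

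Dystrophin siRNA was first compared with no treatment, 1 of the comparisons the study made. Transcripts of the adult receptor subunit and of acetylcholinesterase fell, and the other 8 genes did not pass the test. Chrne, the adult epsilon subunit, was at 3.57, 4.54 and 5.08 (lowest, median and highest) in dystrophin siRNA cultures, at 6.95, 7.79 and 7.96 in GL2 siRNA cultures, and at 5.35, 6.37, 6.51 and 6.53 in the 4 untreated cultures. All dystrophin siRNA cultures were below all untreated cultures, which were in turn below all GL2 siRNA cultures. The probe was detected on 1 of 7 dystrophin siRNA arrays and on all arrays of the other groups. The level fell against untreated cultures, with a fitted difference of -1.77 ± 0.27 (SE) on the log2 scale (limma, adjusted p = 0.00161) that includes 6 levels below detection. With dystrophin siRNA levels raised to at least the lowest detected signal of their array, Chrne was at least 2.26-fold lower on the background-corrected scale. Without background correction the fitted difference was -0.59, still past the threshold (adjusted p = 0.00363). In bulk RNA, fewer cells making a transcript and less of it per cell cannot be told apart.

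Ache was at 2.74, 4.03 and 4.60 (lowest, median and highest) in dystrophin siRNA cultures, at 6.69, 7.27 and 7.39 in GL2 siRNA cultures, and at 5.02, 5.17, 5.69 and 6.29 in untreated cultures. The 3 groups did not overlap here either. None of the 7 dystrophin siRNA arrays detected the probe, so only a bound can be given: the level was at least 1.45-fold lower than in untreated cultures, taken against the lowest detected signal of each array (fitted difference -1.68, adjusted p = 0.00702). In untreated cultures 3 of 4 arrays detected it. When the GL2 siRNA arrays were left out of the fit, its adjusted p was 0.0556. The bound holds on the background-corrected scale, and without that correction the fitted difference was -0.49 (adjusted p = 0.0126). The second Ache probe, designed to another transcript, was detected on 1 of 18 arrays and gives no further check.

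Chrna1, the alpha subunit that carries the main acetylcholine contacts, was at 4.18, 4.84 and 4.98 (lowest, median and highest) in dystrophin siRNA cultures, at 5.82, 6.08 and 6.39 in GL2 siRNA cultures, and at 4.27, 5.44, 5.95 and 6.11 in untreated cultures. The untreated group overlapped the dystrophin siRNA group only through untreated culture 4, the lowest of the 4, on which the probe was not detected. The difference from untreated cultures was -0.76 ± 0.26 (adjusted p = 0.258). Without untreated culture 4 it was -1.15, past the threshold (adjusted p = 0.00548). In the other 17 of 18 fits that left out 1 array it was not called. Over all these fits the difference ran down to -0.54 in size, with adjusted p up to 0.597. For the other 7 genes the difference from untreated cultures lay between -0.22 for Chrnd and 0.69 for Musk, with adjusted p from 0.49 to 0.974. The 2 genes called, of 10, compare with 0.907% of all probes called in this comparison (0.63% as lower) and 2.01% of the probes detected on 4 or more arrays, to which all 10 belong. Groups did not overlap for both called genes, and for 2.59% of all probes. The median difference over the 10 genes was -0.12, and over all probes 0.01.

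**Figure D2:**
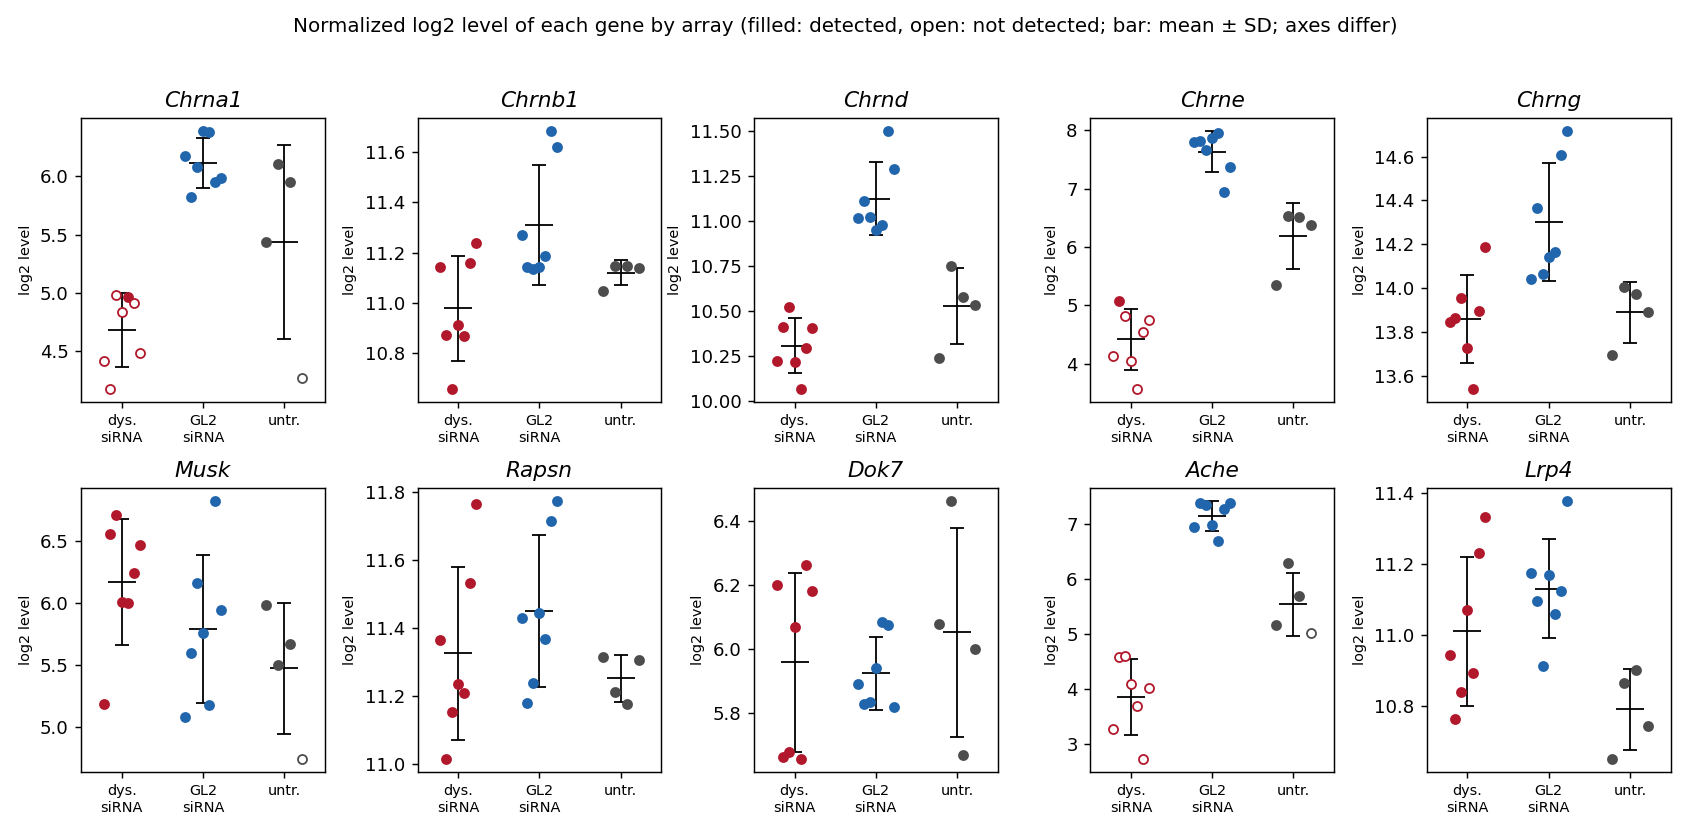
Normalized log2 level of the brightest probe of each gene on each array (y axes differ), with dystrophin siRNA in red, GL2 siRNA in blue and untreated in grey. Filled points were detected, open points were not, and bars give the mean ± SD. Chrne and Ache separate into 3 groups that do not overlap, while Rapsn, Dok7 and Musk overlap throughout.

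The direct comparison of the siRNA groups asks what differs once both have been through transfection. Here 5 of the 10 genes were lower in dystrophin siRNA cultures and none was higher, where 3.76% of all probes (2.16% as lower) and 8.27% of the detected ones were called. These were 4 of the 5 receptor subunits, Chrna1, Chrnd, Chrne and Chrng, and Ache. The median difference over the 10 genes was -0.39, and over all probes 0.003. By the same rule on undetected levels, Chrne was at least 6.12-fold lower (fitted difference -3.21 ± 0.23, adjusted p = 2.63e-08) and Ache at least 4.40-fold lower (fitted difference -3.28 ± 0.26, adjusted p = 7.79e-08). Chrna1, detected on 1 of 7 dystrophin siRNA and 7 of 7 GL2 siRNA arrays, was at least 2.14-fold lower (fitted difference -1.43 ± 0.22, adjusted p = 0.000375). These bounds hold on the background-corrected scale. Without that correction the 3 dim probes kept their calls, with smaller fitted differences of -1.40 for Chrne, -1.24 for Ache and -0.47 for Chrna1.

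Chrnd, the delta subunit, was at 10.07, 10.30 and 10.52 (lowest, median and highest) in dystrophin siRNA cultures, at 10.95, 11.03 and 11.50 in GL2 siRNA cultures, and at 10.24, 10.54, 10.58 and 10.75 in untreated cultures. As for Chrna1, Chrne and Ache, the siRNA groups did not overlap, which held for 2.19% of all probes. For Chrnd the untreated cultures lay below all GL2 siRNA cultures and overlapped the dystrophin siRNA cultures. The fall against GL2 siRNA was 0.82 ± 0.11 (SE; adjusted p = 5.38e-05). The 2 dimmer Chrnd probes gave -0.50 and -0.61, neither past the threshold (adjusted p = 0.212 and 0.0788).

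Chrng, the fetal gamma subunit, was at 13.54, 13.87 and 14.19 (lowest, median and highest) in dystrophin siRNA cultures, at 14.04, 14.17 and 14.72 in GL2 siRNA cultures, and at 13.69, 13.89, 13.97 and 14.00 in untreated cultures. The siRNA groups overlapped slightly, and the untreated values lay within the dystrophin siRNA range. Chrng fell by 0.44 ± 0.12 against GL2 siRNA, close to the threshold (adjusted p = 0.0437), and the call was lost in 14 of 18 fits that left out 1 array (adjusted p up to 0.101; it held without dystrophin siRNA culture 7, GL2 siRNA culture 1 or 3, or untreated culture 1), with median centring (adjusted p = 0.0991) and with only the 2 groups in the fit (adjusted p = 0.0771). A second, dimmer Chrng probe moved further: it averaged 6.95 ± 0.27 in dystrophin siRNA cultures, 8.28 ± 0.34 in GL2 siRNA cultures and 7.15 ± 0.20 in untreated cultures (SD, n = 7, 7 and 4), and fell by 1.32 ± 0.15 (SE) against GL2 siRNA (adjusted p = 9.16e-06).

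Chrnb1, the beta subunit, was at 10.66 to 11.24 in dystrophin siRNA cultures, 11.13 to 11.69 in GL2 siRNA cultures and 11.05 to 11.15 in untreated cultures. Its difference from GL2 siRNA, -0.34 ± 0.11, missed the threshold (adjusted p = 0.122). It passed in 6 of 9 other settings, with adjusted p between 0.019 (clusters as a block) and 0.0439 (detected probes only), 0.0411 with the replicate number as a block, and missed it with median centring, the authors' processed values and only the 2 groups in the fit. It was negative in all 7 pairs of same-numbered arrays. None of the clustering and signalling genes passed the threshold (adjusted p between 0.623 and 0.959). Rapsn, the receptor scaffold, differed by -0.12 ± 0.12, Lrp4, the agrin receptor, by -0.12 ± 0.10 and Dok7 by 0.03 ± 0.13. Musk differed by 0.37 ± 0.27, no smaller in size than Chrnb1 but with a larger error. The 95% intervals of these 4 ran from -0.37 to 0.12 for Rapsn, -0.33 to 0.09 for Lrp4, -0.23 to 0.30 for Dok7 and -0.18 to 0.93 for Musk, the widest of the 4.

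Arrays of the same number in the 2 siRNA groups deviated together, and differences were taken within these 7 pairs. Cultures of 1 occasion share their cells, so the 7 pairs are not 7 independent repeats. Levels below detection enter at their measured values. Chrne was lower in all 7 pairs, with differences of -4.39 to -2.41 on the log2 scale, Ache in all 7 with -4.53 to -2.74, and Chrna1 in all 7 with -1.76 to -1.04. Chrnd and Chrng were also lower in all 7 pairs, Chrnd with -1.20 to -0.50 and Chrng with -0.71 to -0.11. Musk was higher in 6 of 7 pairs and Dok7 in 4 of 7. Within the 4 clusters of arrays the Chrne difference ran from -4.11 to -2.52 and the Ache difference from -3.94 to -2.77.

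**Figure D3:**
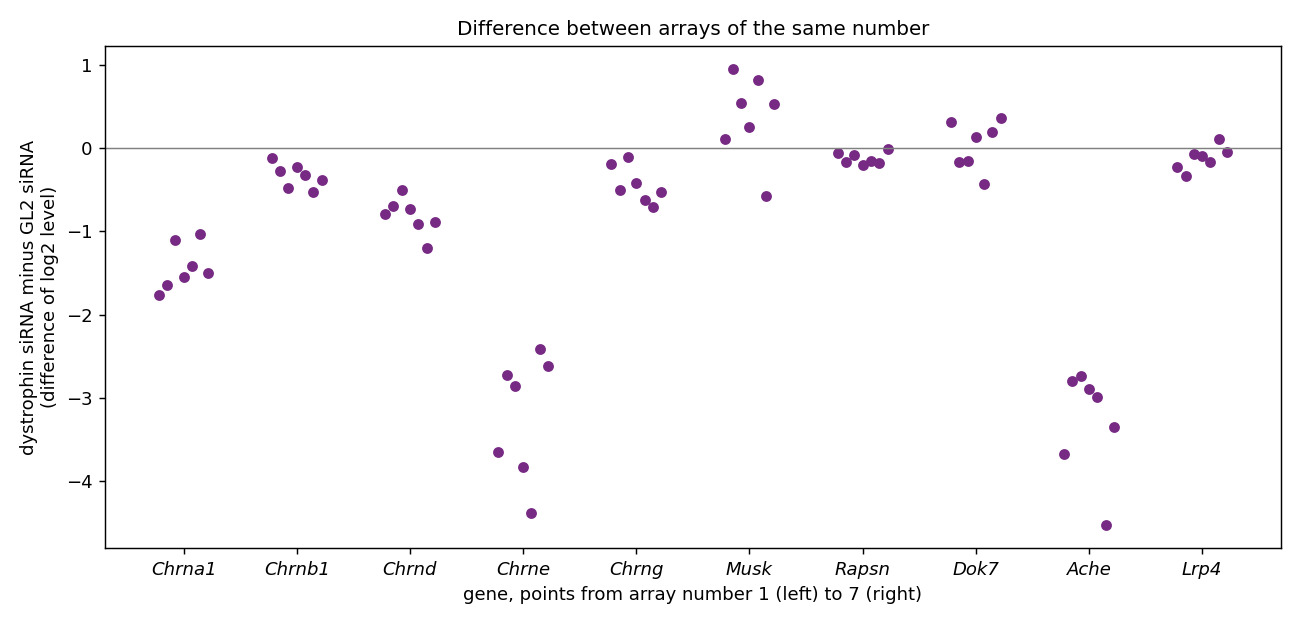
Difference of log2 level, dystrophin siRNA minus GL2 siRNA, between arrays of the same number for each gene (y axis), 7 points per gene. Every point of Chrna1, Chrnb1, Chrnd, Chrne, Chrng, Rapsn and Ache is below 0, and Chrne and Ache lie lowest, at -2.41 and below.

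The control siRNA itself was set against no treatment. Chrne, Ache and Chrnd rose, 3 of 10 genes where 0.733% of all probes (0.339% as higher) and 1.65% of the detected ones were called, and no gene fell. Chrne was 1.44 ± 0.27 higher in GL2 siRNA than in untreated cultures on the log2 scale, or 2.71-fold (adjusted p = 0.0137). Ache was 1.60 ± 0.30 higher, or 3.04-fold (adjusted p = 0.0137). These folds hold on the background-corrected scale. Without that correction the fitted differences were 0.81 for Chrne and 0.75 for Ache (limma, adjusted p = 0.000164 and 0.000233). Chrnd was 0.60 ± 0.12 higher, or 1.51-fold (adjusted p = 0.0255), while its 2 dimmer probes gave 0.50 and 0.51, neither past the threshold (adjusted p = 0.416 and 0.381). The dimmer Chrng probe was also higher, by 1.13 ± 0.17 (adjusted p = 0.00205), while the brighter one gave 0.41 ± 0.14 (adjusted p = 0.238). The median over the 10 genes was 0.38, against 0.01 over all probes. Since this comparison shares its untreated cultures with that of dystrophin siRNA, and its GL2 siRNA cultures with the direct one, the 3 sets of differences are not independent.

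The calls against untreated cultures rest on 4 arrays. Without untreated culture 1, which had the lowest Chrne level of its group, no gene was called between GL2 siRNA and untreated cultures (adjusted p = 0.0737 for Chrne, 0.0725 for Ache and 0.129 for Chrnd), and without untreated culture 4 only Chrne was. The Chrnd call was also lost without untreated culture 3 (adjusted p = 0.0724) or GL2 siRNA culture 7 (adjusted p = 0.0571), with median centring (0.147) and with only the 2 groups in the fit (0.0831). Groups did not overlap for Chrne, Ache, Chrnd, Chrng and Lrp4 in this comparison, where 2.99% of all probes did not overlap.

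**Figure D4:**
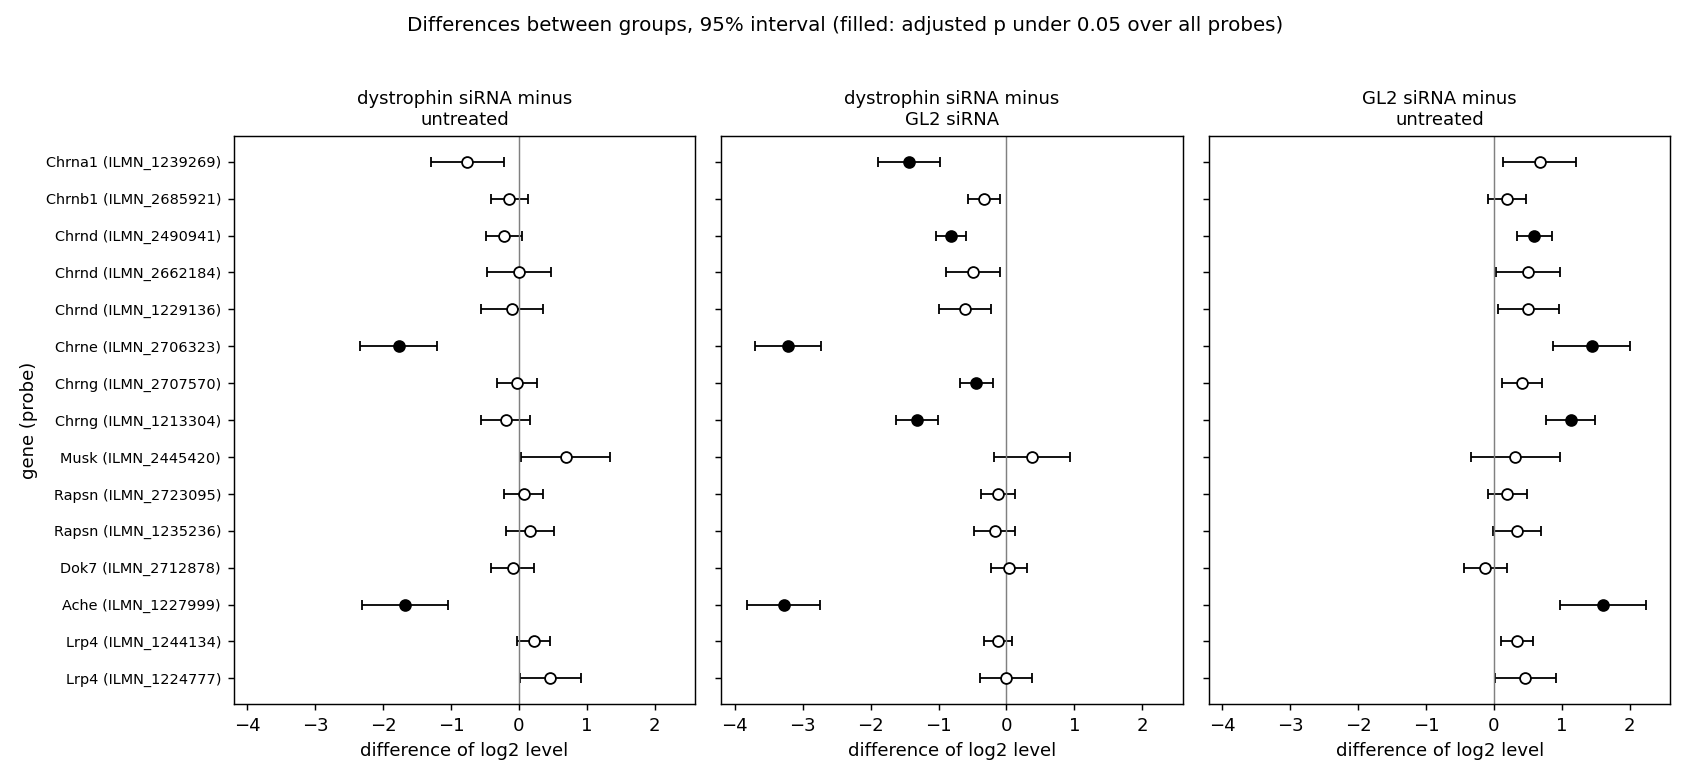
Difference of log2 level between groups with its 95% interval for the 15 probes detected on at least 4 arrays, in the 3 comparisons; filled points had an adjusted p under 0.05 over all probes. Chrne and Ache are filled in all 3 panels, with -1.77 and -1.68 against untreated, -3.21 and -3.28 against GL2 siRNA, and 1.44 and 1.60 for GL2 siRNA against untreated.

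The balance of the adult to the fetal subunit was followed as the Chrne level minus the Chrng level on each array, which can be compared between groups but gives no ratio of molecules, since each probe has its own brightness. It was -9.44 ± 0.39 in dystrophin siRNA cultures, -6.67 ± 0.59 in GL2 siRNA cultures and -7.70 ± 0.43 in untreated cultures (SD, n = 7, 7 and 4). All 7 dystrophin siRNA values, from -9.97 to -8.79, lay below the untreated values, from -8.34 to -7.46, and below the GL2 siRNA values. The shift against untreated cultures was -1.74 ± 0.30 and against GL2 siRNA -2.77 ± 0.26. Since Chrne was detected on 1 of 7 dystrophin siRNA arrays, these sizes depend on levels near the detection limit, and with those levels raised to the lowest detected signal they were -1.14 and -2.17. GL2 siRNA cultures differed from untreated ones by 1.03 ± 0.30, with overlap only through GL2 siRNA culture 6, at -7.66. GL2 siRNA culture 7, at -7.34, lay just above the highest untreated value. Chrng itself differed little between dystrophin siRNA and untreated cultures (-0.03 ± 0.14), so that shift was carried by the epsilon probe. With the dimmer Chrng probe in its place the shifts were -1.58 ± 0.33, -1.89 ± 0.28 and 0.31 ± 0.33 in the same order, and without background correction -0.56, -0.96 and 0.40.

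**Figure D5:**
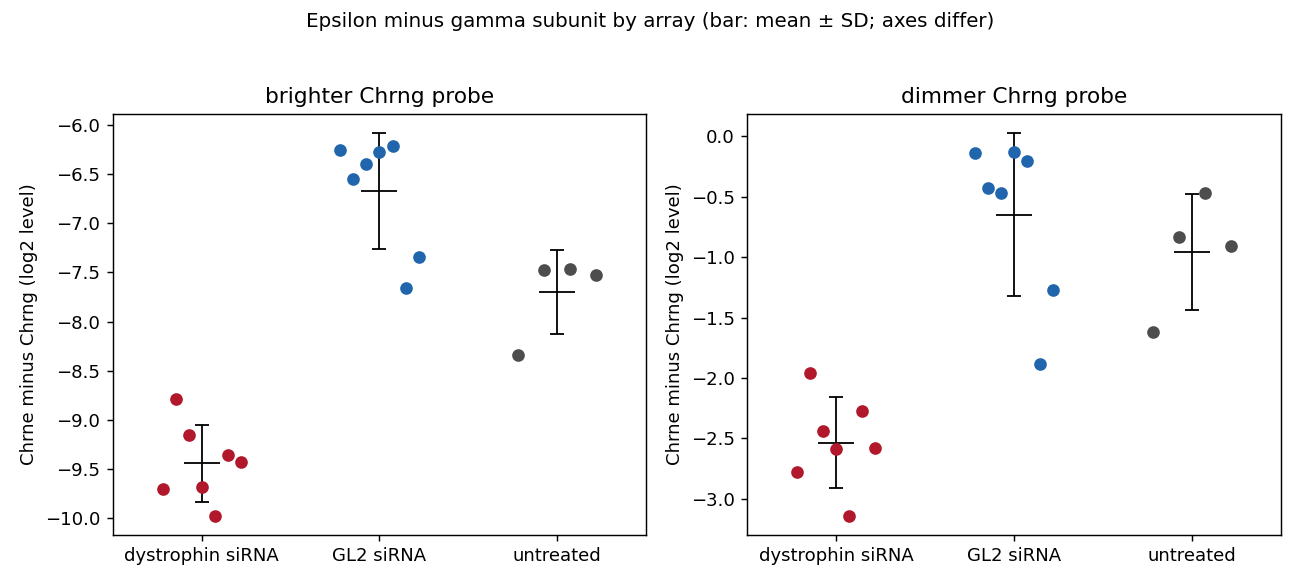
Chrne minus Chrng log2 level on each array with the brighter Chrng probe (left) and with the dimmer one (right); bars give the mean ± SD and the y axes differ. The dystrophin siRNA cultures lie lowest on both sides, and GL2 siRNA cultures 6 and 7 lie apart from the other 5 of their group.

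Over all 18 arrays Chrne and Ache followed each other (Pearson r = 0.934), but within groups only loosely (r = 0.297), so that the first value mostly reflects the group means. The neighbours Chrnd and Chrng kept an r of 0.833 within groups, and Chrnb1 and Rapsn 0.850. These are descriptions over 18 arrays of shared cultures. Between-cluster differences made up 80.7% of the within-group variance of Rapsn and 68.1% of that of Chrnb1, against 25.6% for Chrne. Among 10490 other genes detected on at least 4 arrays, those whose pattern was most like that of Chrne were Clec18a (r = 0.963), Col23a1 (0.954), Rfx2 (0.953), Bcas3 (0.950) and Il12a (0.948). For Ache they were Entpd3 (0.968), Cd300c (0.965), Abhd1 (0.952), Ptp4a3 (0.952) and Myh1 (0.949), the last a fast adult myosin heavy chain. For Chrng they were Gnpat (0.927), Chchd4 (0.921), Psen2 (0.912), Coprs (0.907) and Hip1r (0.905). Within groups the r of the genes listed for Chrne ran from 0.424 (Col23a1) to 0.717 (Bcas3). For Ache it ran from 0.523 (Ptp4a3) to 0.709 (Entpd3), and for Chrng from 0.8 (Coprs) to 0.937 (Gnpat). The values over all 18 arrays for Chrne and Ache thus reflect the group means in part.

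The other genes of the junction were read from 6 lists. As a share to set the counts against, 8.27% of the probes detected on 4 or more arrays were called between the siRNA groups. Against untreated cultures the share was 2.01% for dystrophin siRNA and 1.65% for GL2 siRNA. Of 16 measured genes of agrin and neuregulin signalling, 1 was higher and 1 lower in dystrophin siRNA than in GL2 siRNA cultures. Etv5, an Ets factor needed for synaptic gene expression in mouse muscle, fell by 0.98 ± 0.10 (adjusted p = 2.73e-06) and was 0.54 ± 0.12 higher in GL2 siRNA than in untreated cultures (adjusted p = 0.032). Cttn, the actin-binding protein cortactin, rose by 0.34 ± 0.08 (adjusted p = 0.0132). Agrn and Nrg1, which encode agrin and neuregulin 1, differed by 0.19 ± 0.09 and 0.02 ± 0.15 between the siRNA groups (adjusted p = 0.345 and 0.98).

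Of 13 measured postsynaptic cytoskeletal and anchoring genes, 2 were lower in dystrophin siRNA than in GL2 siRNA cultures and none was higher. Ank3, which encodes ankyrin-G, fell by 0.68 ± 0.07 (adjusted p = 6.14e-06) and was 0.39 ± 0.09 higher in GL2 siRNA than in untreated cultures (adjusted p = 0.0395), and Prkar1a, a regulatory subunit of protein kinase A, fell by 0.29 ± 0.07 (adjusted p = 0.0227). Utrn, encoding utrophin, the synaptic relative of dystrophin, differed by 0.18 ± 0.09 (adjusted p = 0.423) from GL2 siRNA and by 0.01 ± 0.11 (adjusted p = 0.991) from untreated cultures. None of 14 measured matrix and cholinesterase anchor genes passed the test in any comparison, and Colq, the collagen tail of the synaptic esterase, was detected on 0 of 18 arrays.

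Of 16 measured activity-dependent regulators, 1 was higher and 3 were lower in dystrophin siRNA than in GL2 siRNA cultures. Camk2b, a calcium/calmodulin-dependent kinase, fell by 0.61 ± 0.09 (adjusted p = 0.000378) and was the only gene of the 6 lists called for dystrophin siRNA against untreated cultures, where it fell by 0.83 ± 0.11 (adjusted p = 0.000333). The myogenic factor gene Myf6 fell by 0.55 ± 0.10 (adjusted p = 0.00169) and Gadd45a by 0.37 ± 0.10 (adjusted p = 0.0371), while Id3, an inhibitor of E-box-binding factors, rose by 0.51 ± 0.10 (adjusted p = 0.00448). Among 11 neuronal-type receptor subunits, 3 of them detected on at least 4 arrays, Chrna10 fell by 0.74 ± 0.13 (adjusted p = 0.00145), and among 5 glycosylation genes of congenital myasthenia Alg2 rose by 0.28 ± 0.06 (adjusted p = 0.0151).

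Markers of the cells in the cultures were read beside these values. Between the siRNA groups 8.27% of the probes detected on 4 or more arrays were called. Of 12 measured myotube differentiation genes none was called against untreated cultures for either siRNA, and the mean of the list was 13.66 to 13.82 in dystrophin siRNA, 13.75 to 13.91 in GL2 siRNA and 13.71 to 13.79 in untreated cultures. Against GL2 siRNA 2 of the 12 were lower in dystrophin siRNA cultures, Ckm by 0.92 ± 0.11 (adjusted p = 1.69e-05) and Tnnt3 by 0.31 ± 0.06 (adjusted p = 0.00574), alongside the 5 receptor and junction genes, and their part in that result was not tested. Of 8 neuron markers, Chat, Syt1 and Slc18a3 were detected on no array, and 1, the choline transporter gene Slc5a7, was higher in dystrophin siRNA than in GL2 siRNA cultures, by 0.83 ± 0.17 (adjusted p = 0.00556); the mean of the 5 detected markers was 5.63 to 6.12 in dystrophin siRNA, 5.53 to 5.97 in GL2 siRNA and 5.69 to 5.99 in untreated cultures. None of the 5 measured Schwann cell markers was called. S100b and Gfap were detected on no array, while Ngfr, Sox10 and Mbp were detected on all 18. The mean of these 3 was 8.98 to 9.65 in dystrophin siRNA, 8.89 to 9.50 in GL2 siRNA and 9.30 to 9.56 in untreated cultures. Of 6 endothelial genes Vwf was higher in dystrophin siRNA than in GL2 siRNA cultures, by 0.68 ± 0.11 (adjusted p = 0.00104), and no myoblast, macrophage or adipocyte marker was called in any comparison. All 4 measured macrophage markers were still lower with either siRNA than in untreated cultures. The mean of the 3 detected ones was 9.40 ± 0.64 in dystrophin siRNA, 9.40 ± 0.65 in GL2 siRNA and 10.02 ± 0.11 in untreated cultures (SD). None of 8 fibroblast genes was called in any comparison, with list means of 11.90 to 12.70 in dystrophin siRNA, 11.71 to 12.48 in GL2 siRNA and 12.37 to 12.53 in untreated cultures. All 8 were still lower in GL2 siRNA than in untreated cultures (median difference -0.28). Between the siRNA groups 7 were higher and 1 lower with dystrophin siRNA (median 0.23). Against untreated cultures 7 were lower and 1 higher with dystrophin siRNA (median -0.13). The part of these shifts in the receptor results was not tested.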

How the data were processed

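The deposited intensity values were mean bead signals per probe on a linear scale, exported by the authors from BeadStudio with a detection p-value for each probe against the array's negative controls. The authors also deposited processed intensity values, made by background correction, log2 transformation and quantile normalization with lumi, whose version is not given in the sources used here. Here the RMA background model was fitted to the bead signals, followed by log2 and quantile normalization, and the result lay within 0.022 of the log2 of the deposited processed values (median difference 0.002), whose column medians were all between 15.4 and 15.5 on the linear scale. All 18 arrays entered 1 limma fit (version 3.58.1, R 4.3.3) with group as the only term, and p-values were adjusted by the Benjamini-Hochberg method over all 46632 probes, with a threshold of 0.05. The fit was tested on simulated data with known changes. Background correction raises the fold of dim probes such as Chrne and Ache. Of the probes, 29976 have 1 gene symbol, 10 several and 16646 none.

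Every member is named, with Dmd, every list gene past the threshold in any comparison, Agrn, Colq, Utrn and Nrg1 in any case, and the 5 genes closest in pattern to Chrne, Ache and Chrng; individual markers were named after their values were seen. The genes and lists were chosen with earlier results of these data known. Deviations from the group means correlated between same-numbered dystrophin siRNA and GL2 siRNA arrays at 0.348 to 0.513 in all 7 pairs. These numbers, given in the labels, were taken as pairs. Dystrophin siRNA array 3, however, correlated best with GL2 siRNA array 2. Numbers 2 and 3, 4 and 5, and 6 and 7 fell into the same clusters, so the pairs need not be 7 separate sets. Against untreated arrays the deviations correlated at -0.076 to 0.275, and the numbers do not pair. Alternatives were no or normexp background correction, median centring, the authors' processed values, a detection filter, only the compared groups, blocks, a mean-variance trend, other probes, undetected Chrne levels raised and leaving out each array. The number of arrays limits the precision.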

Additional observations from a re-analysis of the deposited data

Results flagged for a closer look

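Untreated culture 1 stood apart from the other 3 cultures of its group in 2 genes, by the gap to its nearest neighbour over the range of the group. Its Chrne level was 5.35, against 6.37 to 6.53 in the other 3. Its Chrnb1 level was 11.05, against 11.14 to 11.15, a gap that is small in size. Of 30 sets of values tested, 2 stood apart in this way, where chance gives about 1 in 20, or 1.5.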

How the results depend on the processing

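Leaving out 1 array at a time, the receptor and junction genes called numbered 2 to 3 for dystrophin siRNA against untreated, 4 to 5 against GL2 siRNA and 0 to 3 for GL2 siRNA against untreated. The array-wide counts, 423, 1752 and 342 probes in that order, ran over 247 to 465, 1472 to 1746 and 147 to 377. Directions turned only in values near 0: Chrng against untreated (-0.096 to 0.022), and Dok7 against untreated (-0.221 to 0.044), against GL2 siRNA (-0.017 to 0.084) and for GL2 siRNA against untreated (-0.255 to 0.010). Without background correction the probe counts were 749, 2636 and 854 and the balance of Chrne to Chrng shifted by -0.561, -0.962 and 0.402; with normexp and an offset of 50 the counts against untreated were 739 and 839, and the balance shifted by -0.593, -1.022 and 0.429. The dimmer Chrng probe, an alternative chosen after seeing the data, gave -1.889 against GL2 siRNA and 0.310 for GL2 siRNA against untreated. Raising undetected Chrne levels to the lowest detected level, also chosen after seeing the data, gave -1.144 against untreated and -2.173 against GL2 siRNA. Only probes detected on at least 4 arrays gave 737, 2713 and 811. Only the compared groups gave 267 and 217 against untreated, with 1 receptor and junction gene for dystrophin siRNA. The clusters as a block gave 698, 2735 and 973, and a mean-variance trend 638 and 678 against untreated. With the replicate number as a block, which does not pair the untreated cultures, 50 and 1 probes were called against untreated. In both, 0 receptor and junction genes were called, and Rapsn turned to -0.059 for dystrophin siRNA. Untreated cultures are numbered 1 to 4, so siRNA cultures 5 to 7 did not inform these differences from untreated cultures. Between the siRNA groups 6 genes were called with this block, Chrnb1 among them, and no other call changed. Chrnb1 was also called between them without background correction, with normexp, the detection filter, the clusters as a block and the trend. Median centring lost 2 calls, Chrnd for GL2 siRNA against untreated and Chrng between the siRNA groups. The authors' processed values changed none. The causes were not tested. A slide block was not run, since the headers name no slides. Dim probes limit the fold: Ache was detected on 0 and Chrne on 1 of 7 dystrophin siRNA arrays.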
